A study of Mus musculus with 24 samples.

Results

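The 9 genes described here encode the invariant chains of the T cell receptor complex and the proteins that act closest to it. They are *Cd3d*, *Cd3e*, *Cd3g*, *Cd247*, *Cd4*, *Lck*, *Zap70*, *Lat* and *Lcp2*, chosen by symbol, and all 9 were found among the 55414 genes listed and were among the 10566 genes with enough counts to be tested. They were followed in CD4+ CD25- conventional T (Tconv) cells from the spleens of conplastic mice. All have the nuclear genome of C57BL/6J, with mitochondrial DNA either of C57BL/6J (mtDNA B6, labelled WT) or of the NZB strain (mtDNA NZB), and their cells are called B6 and NZB cells from here on. The cells, labelled TE, were taken at rest (RES) or after activation (ACT) with beads carrying antibodies to CD3 and CD28, at 1 bead per cell and with IL-2 added, for 72 h according to the methods of the study. Each of the 4 groups had 6 libraries. The methods give males of 2 to 3 months for most experiments, and females for some of the tumour and transfer experiments, without naming the mice of these libraries, and the labels do not say whether the 6 libraries of a group came from separate mice, so that the p-values measure the spread between libraries, which may be technical.

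The αβ T cell receptor binds a peptide held by an MHC molecule but has no signalling tail of its own. It is assembled with the CD3δ, CD3ε and CD3γ chains and with CD247 (CD3ζ), whose tails carry immunoreceptor tyrosine-based activation motifs (ITAMs). When the receptor is engaged, the kinase LCK, brought in by the coreceptor CD4, phosphorylates the ITAM tyrosines, ZAP-70 docks on them, and ZAP-70 then phosphorylates the scaffolds LAT and SLP-76 (the product of *Lcp2*), from which the calcium, Ras and NF-κB branches start. The beads used here act on this complex and on CD28, and the IL-2 added with them acts through its own receptor.

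The 3 CD3 genes lie together on chromosome 9 of GRCm39. *Cd3g* (chr9:44880870-44891735, minus strand, 7 exons) and *Cd3d* (chr9:44893083-44899173, plus strand, 5 exons) are transcribed away from each other from starts 1348 bases apart, and *Cd3e* (chr9:44910037-44920925, minus strand, 8 exons) starts 27828 bases from *Cd3d*. *Cd247* lies apart from them, at chr1:165616250-165704846 (plus strand, 8 exons). The coding sequences of 173 (*Cd3d*), 189 (*Cd3e*), 182 (*Cd3g*) and 164 (*Cd247*) codons were searched for ITAMs, a tyrosine, any 2 residues, then leucine or isoleucine, repeated after 6 to 8 residues. *Cd3d*, *Cd3e* and *Cd3g* each held 1 and *Cd247* held 3, and the coding sequences of *Cd4*, *Lck*, *Zap70*, *Lat* and *Lcp2* held 0. The 4 codons that open each ITAM are shown here from GRCm39 because they are what LCK acts on, with the codon of the first tyrosine in capitals, and in every case they are divided between 2 exons, so that the coordinates span an intron.
Cd3d, tyrosine 149, chr9:44897393-44897576, plus strand: TATcagcctctt
Cd3e, tyrosine 170, chr9:44910880-44911738, minus strand: TATgagcccatc
Cd3g, tyrosine 160, chr9:44882066-44882566, minus strand: TACcagcccctc
Cd247, tyrosine 72, chr1:165684020-165684990, plus strand: TACaatgagctc
Cd247, tyrosine 111, chr1:165686042-165686793, plus strand: TACaatgcactg
Cd247, tyrosine 142, chr1:165687388-165688578, plus strand: TACcagggtctc

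The libraries were of the bulk MARS-seq kind, which reads the 3′ end of polyadenylated transcripts and counts each tagged molecule once by its unique molecular identifier (UMI). Libraries held 2615906 to 5456681 UMI counts in resting and 2430562 to 4452880 in activated B6 cells, and 51409 to 3662366 in resting and 641467 to 6449395 in activated NZB cells. Levels are given as CPM, the UMI counts of a gene per 1000000 counts of its library, after scaling by TMM. Members had at least 45 UMIs in every B6 library, but in the smallest library, NZB resting 2, *Lcp2* rested on 2 UMIs and *Cd3g* on 9. Results are given over all 24 libraries, and also over the 21 left when NZB resting 2 and 6 and NZB activated 6 are set aside, the set whose group means match those in the dataset of the study to within 0.475%. By the ratio of reads to UMIs the libraries fell into 3 sets, which are not conditions. In B6 cells the first set held 5 activated libraries, the second 4 resting and 1 activated, and the third 2 resting, so that set and state are nearly confounded there. In NZB cells the 3 sets held 1, 1 and 4 resting libraries and 2, 2 and 2 activated ones. The haplotypes of a state were therefore also spread unequally over the sets.

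The label of the cells was checked against markers. *Il2ra*, the CD25 gene, had a median of 3.17 CPM in resting and 76.3 CPM in activated B6 cells, and 3.01 CPM and 101.7 CPM in NZB cells, with no overlap between states in either haplotype. *Mki67* and *Gzmb*, also listed for this check, were likewise higher after activation without overlap in both haplotypes. *Tfrc*, the remaining gene listed, overlapped between states in both. It had 0 to 3.132 CPM in resting and 1.189 to 9.914 CPM in activated B6 cells. In NZB cells it had 0 to 3.614 CPM at rest and 0.6544 to 17.25 CPM after activation. RNA of other cells was present. The summed share of 36 markers of B cells, myeloid cells, granulocytes, erythroid cells, CD8 T and NK cells and platelets was 1.36% to 2.59% in resting and 0.441% to 1.01% in activated B6 libraries, and 0.885% to 3.71% and 0.188% to 1.02% in NZB libraries. Its median was 2.05% at rest and 0.633% after activation in B6 cells and 1.86% and 0.528% in NZB cells, whereas the CD8 T and NK list and the platelet list had higher medians after activation. Of the 36 markers *Ppbp*, a platelet gene, was at 0 in resting B6 cells. Since these are bulk samples, fewer cells of a type and less RNA per cell cannot be told apart. Their part in the results was not tested.

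**Figure D1:**
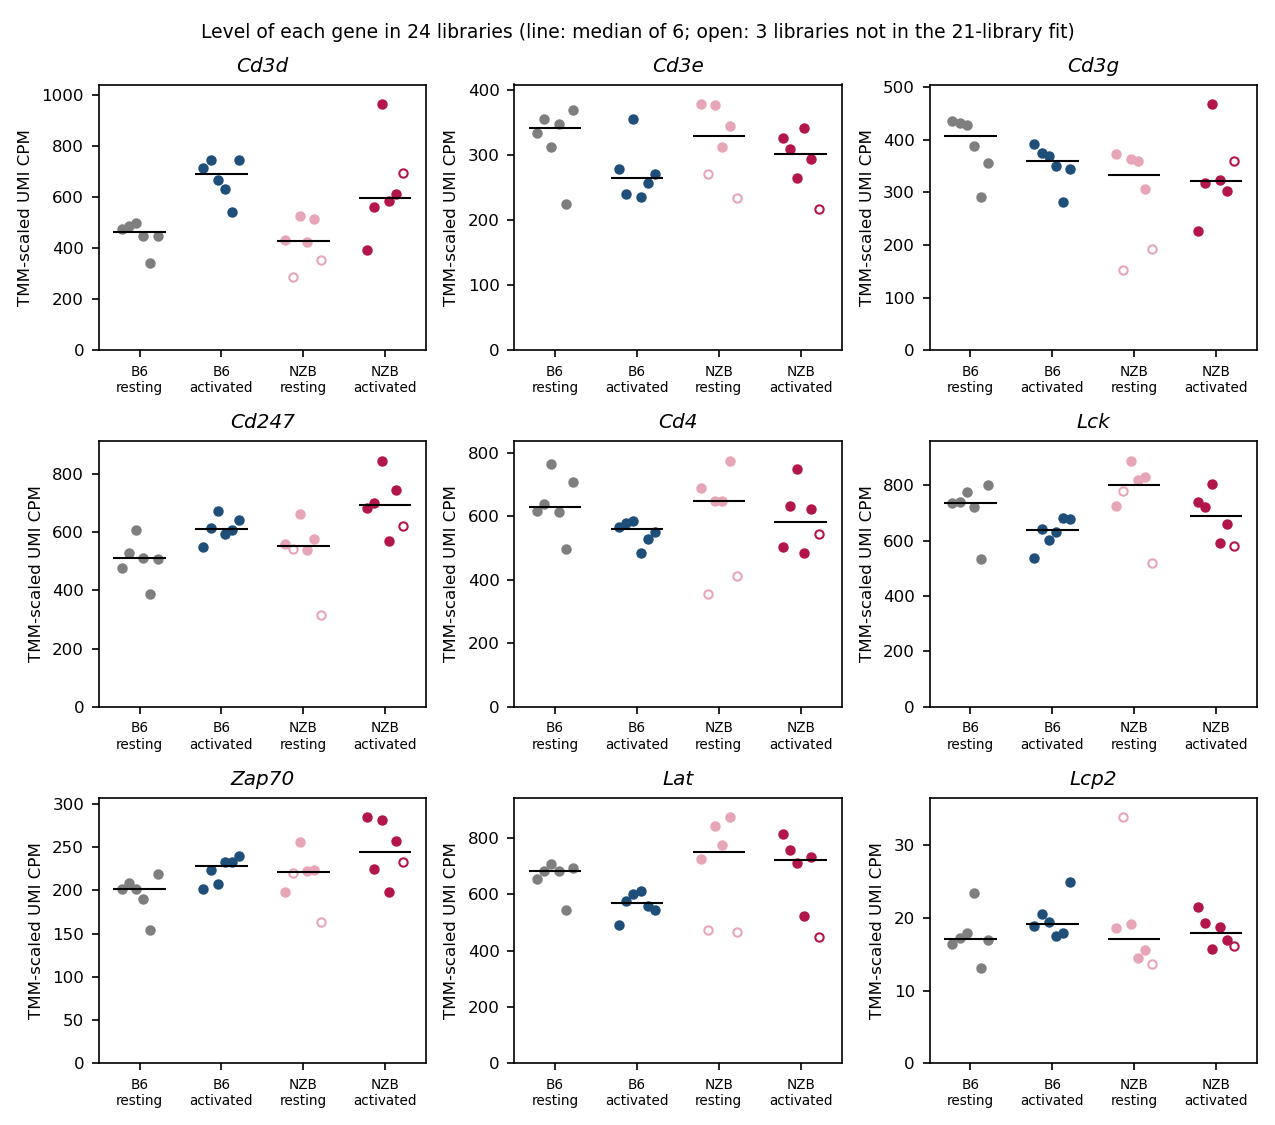
Level of each of the 9 genes in the 24 libraries, as TMM-scaled CPM of UMIs (vertical axis, from 0), by haplotype and state (horizontal axis). Points are libraries, lines are medians of 6 and open points are the 3 libraries set aside in the 21-library fit. In B6 cells the activated libraries lie above the resting ones for *Cd3d* (539.7 to 746 against 343 to 497 CPM), and the states overlap for the other 8 genes.

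Activation raised 1 of the 9 genes in B6 cells and 2 in NZB cells, and lowered 0 in either haplotype. *Cd3d* rose in both, 1.5-fold and 1.47-fold, and *Cd247* rose in NZB cells, 1.30-fold. Among all genes tested, 22.4% were higher and 24.5% lower in B6 cells and 25.2% were higher and 28.4% lower in NZB cells, so the members that rose, 1 of 9 and 2 of 9, were not more than the background gives. No member changed by a log2 difference of 1 or more, a size that 17.7% of all genes reached with an adjusted p of at most 0.05 in B6 cells and 23.4% in NZB cells. The median log2 difference of the members was -0.14 in B6 cells and 0.094 in NZB cells, against -0.026 and -0.058 over all genes tested.

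*Cd3d*, which encodes CD3δ, had 343 to 497 CPM (median 462) in resting B6 cells and 539.7 to 746 CPM (median 689) after activation. Every activated library was above every resting one, and the log2 difference was 0.58 (SE 0.16, 95% interval 0.26 to 0.91, adjusted p = 0.00381). Of all genes, 15.4% were separated upwards in this way and 16.4% downwards, and *Cd3d* was the 1 member of the 9 that was. The NZB libraries had 288 to 526 CPM (median 426) at rest and 394 to 963 CPM (median 596) after activation. Here the groups overlapped, with the activated library 1 below 4 of the 6 resting libraries, and the log2 difference was 0.56 (SE 0.16, 95% interval 0.23 to 0.89, adjusted p = 0.00505). Non-overlap was rarer in this haplotype, 11.9% of genes upwards and 6.95% downwards, with 0 of 9 members.

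The rise of *Cd3d* did not pass every fit. Over 21 libraries it was 0.58 (adjusted p = 0.00227) in B6 cells and 0.40 (adjusted p = 0.054) in NZB cells. With the library set as a term it was 0.39 (adjusted p = 0.15) and 0.52 (adjusted p = 0.0105). Within the second set, the 1 that held both states of B6 cells, 4 resting libraries had 448 to 497 CPM and the 1 activated library had 539.7 CPM. For NZB the resting and activated values were 526 against 609.7 and 694 CPM in the first set, 430.2 against 561 and 583 CPM in the second, and 288 to 512 against 394 and 963 CPM in the third. The cells had been separated on magnetic columns by removing other cells from CD4+ ones, with the enrichment checked by flow cytometry according to the methods, a step that should remove CD8 T cells. These also carry the CD3 chains, and *Cd8a* rose with activation, with medians of 17.6 and 108 CPM in B6 cells (adjusted p = 5.76e-05) and of 16.3 and 65.4 CPM in NZB cells (adjusted p = 0.000799). Of the 4 markers of the CD8 T and NK list that were tested, 3 rose in B6 and 2 in NZB cells, and *Klrb1c*, an NK cell gene, fell by 1.99 and by 2.79 on the log2 scale (adjusted p = 3.51e-05 and 2.65e-06). The CD8 T and NK list, with 6 of 6 markers counted in each group, summed to 179.5 to 256 CPM at rest and 338 to 874 CPM after activation in B6 cells, and to 67.8 to 290.1 CPM and 159.6 to 862 CPM in NZB cells. Its part in the rise of *Cd3d* was not tested.

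*Cd3g*, the neighbour of *Cd3d*, encodes CD3γ, which pairs with CD3ε in the complex. It had 290.4 to 436 CPM (median 408) in resting and 281 to 392 CPM (median 359) in activated B6 cells, a log2 difference of -0.14 (SE 0.17, 95% interval -0.49 to 0.20, adjusted p = 0.504). Resting NZB cells had 152 to 372 CPM (median 333) and activated ones 226 to 468 CPM (median 321), a log2 difference of 0.13 (SE 0.17, 95% interval -0.22 to 0.48, adjusted p = 0.534). The groups overlapped in both haplotypes, and the NZB value was -0.088 over the 21 libraries, so that its sign rested on the libraries set aside.

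*Cd3e* encodes CD3ε, the chain to which anti-CD3 antibodies usually bind. It had 224 to 369 CPM (median 341) in resting and 236 to 355 CPM (median 264) in activated B6 cells, a log2 difference of -0.25 (SE 0.14, 95% interval -0.53 to 0.039, adjusted p = 0.149). Without B6 resting 5, the lowest resting library, the difference was -0.33 and passed the test (adjusted p = 0.0431). The NZB values were 234 to 378 CPM (median 329) at rest and 216 to 342 CPM (median 301) after activation, with a log2 difference of -0.16 (SE 0.14, 95% interval -0.45 to 0.14, adjusted p = 0.366). The last 1000 bases of *Cd3e* overlap a long non-coding RNA gene, *Gm48719*, on the opposite strand, and whether the counting used strand is not given in the sources used here.

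*Cd247* encodes the ζ chain, which carries 3 of the 6 ITAMs listed above. With the NZB haplotype it had 316 to 661 CPM (median 551) at rest and 569 to 844 CPM (median 690.6) after activation, and it rose by a log2 difference of 0.38 (SE 0.14, 95% interval 0.10 to 0.66, adjusted p = 0.0205). The groups overlapped, with the resting libraries 3 and 5, at 661 and 576 CPM, above the lowest activated library, at 569 CPM. The call was lost without NZB resting 6 (0.26, adjusted p = 0.0557), without NZB activated 3 (0.32, adjusted p = 0.0564) and over the 21 libraries (0.28, adjusted p = 0.0534). In B6 cells it had 388 to 606 CPM (median 509.6) at rest and 549.7 to 673 CPM (median 611) after activation, a log2 difference of 0.29 (SE 0.13, 95% interval 0.011 to 0.56, adjusted p = 0.082). This difference passed over the 21 libraries (0.29, adjusted p = 0.0229), in a fit of the B6 libraries alone (0.28, adjusted p = 0.0192) and with the number in the sample descriptions as a block (0.36, adjusted p = 0.0389). The shares of all genes called higher in B6 cells in these 3 fits were 23.8%, 27.3% and 19.4%. Over the 21 libraries 26.6% were lower in B6 cells, and 24.5% were higher and 28.7% lower in NZB cells. In the 21-library fit the members called were therefore 2 of 9 in B6 cells, *Cd3d* and *Cd247*, and 0 of 9 in NZB cells, so which haplotype gave the call depended on the fit, and between these fits of 24 and 21 libraries the sizes lay between 0.28 and 0.38.

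**Figure D2:**
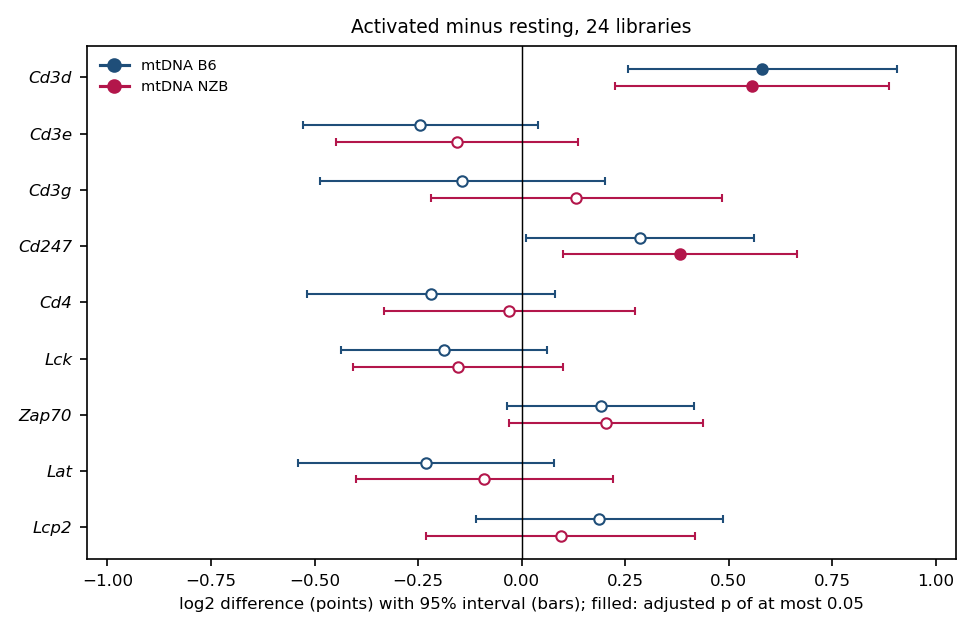
Log2 difference of activated minus resting cells for the 9 genes (horizontal axis) in B6 (blue) and NZB (red) cells, from edgeR's quasi-likelihood test over 24 libraries. Bars are 95% intervals and filled points passed at an adjusted p of at most 0.05. *Cd3d* is filled in both haplotypes at 0.58 and 0.56, *Cd247* in NZB cells at 0.38, and every other interval holds 0 apart from that of *Cd247* in B6 cells.

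*Cd4* (chr6:124841655-124874758) encodes the coreceptor that binds MHC class II and carries LCK to the receptor. It had 499 to 765 CPM (median 629) in resting and 486 to 586 CPM (median 559.7) in activated B6 cells, a log2 difference of -0.22 (SE 0.15, 95% interval -0.52 to 0.082, adjusted p = 0.225). The NZB cells had 356 to 776 CPM (median 648) at rest and 484 to 749.9 CPM (median 583) after activation, a difference of -0.029 (SE 0.15, 95% interval -0.33 to 0.27, adjusted p = 0.89). The states overlapped in both haplotypes, and the lowest values, 356 and 411 CPM, were those of NZB resting 2 and 6.

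*Lck* (chr4:129442137-129467434), the Src-family kinase that phosphorylates the ITAMs, had 534 to 801 CPM (median 738) in resting and 539 to 683 CPM (median 638) in activated B6 cells. The log2 difference was -0.19 (SE 0.12, 95% interval -0.44 to 0.061, adjusted p = 0.21). Its NZB levels were 520.3 to 889.6 CPM (median 800.2) at rest and 581 to 806 CPM (median 691) after activation, a difference of -0.15 (SE 0.12, 95% interval -0.41 to 0.099, adjusted p = 0.301). The medians lay lower after activation in both haplotypes, within overlapping ranges.

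*Zap70* (chr1:36800837-36821905), whose product docks on the phosphorylated ITAMs, had 154 to 219 CPM (median 201) in resting and 201 to 240.1 CPM (median 229) in activated B6 cells, a log2 difference of 0.19 (SE 0.11, 95% interval -0.035 to 0.42, adjusted p = 0.157). Resting and activated NZB cells had 163 to 257 CPM (median 222) and 198 to 285 CPM (median 245), a difference of 0.20 (SE 0.11, 95% interval -0.030 to 0.44, adjusted p = 0.133). The states overlapped in both haplotypes, and both intervals included 0.

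*Lat* (chr7:125962996-125968810) encodes the membrane scaffold that ZAP-70 phosphorylates. It had 543 to 708 CPM (median 684) in resting and 490.4 to 611 CPM (median 568) in activated B6 cells, a log2 difference of -0.23 (SE 0.15, 95% interval -0.54 to 0.078, adjusted p = 0.212). A fit of the B6 libraries alone gave -0.24 and passed the test (adjusted p = 0.0193). Among NZB libraries it had 467 to 874 CPM (median 750.5) at rest and 447 to 815 CPM (median 721) after activation, a difference of -0.090 (SE 0.15, 95% interval -0.40 to 0.22, adjusted p = 0.641). The low ends of both NZB ranges were libraries 2 and 6 at rest and library 6 after activation.

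*Lcp2* (chr11:33996920-34042426), the gene of the cytosolic adaptor SLP-76, was counted at the lowest depth of the 9. It had 13.1 to 23.5 CPM (median 17.1) in resting and 17.6 to 24.96 CPM (median 19.2) in activated B6 cells, a log2 difference of 0.19 (SE 0.14, 95% interval -0.11 to 0.49, adjusted p = 0.301). Its level in NZB cells was 13.7 to 33.9 CPM (median 17.1) at rest and 15.7 to 21.6 CPM (median 17.9) after activation, a difference of 0.094 (SE 0.16, 95% interval -0.23 to 0.42, adjusted p = 0.677). The highest resting value, 33.9 CPM, was that of the smallest library. The last 1000 bases of *Lcp2* overlap the protein-coding gene *4930469K13Rik* on the opposite strand, so its reads may be divided with that gene.

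The precision of these values bounds what could be seen. Counts were simulated from the 24 libraries, with 100 of 10566 genes changed 1.5-fold and 100 changed 2-fold in the activated B6 libraries. The test recovered 19% and 73% of them. In the real B6 comparison 46.9% of all genes passed, so the adjustment let larger p-values pass there than in the simulation. The genes changed were also drawn from all levels, so these shares do not say how often a change in a member was missed. A difference that did not pass was not shown to be absent.

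Ratios between members within 1 library do not depend on how libraries are scaled, and are given as a description without a test. Of 12 ratios computed, the states did not overlap in 5 in B6 cells and in 1 in NZB cells, and over the 21 libraries in 4 in NZB cells, where smaller groups overlap less readily. The 3 described at length were chosen after their values were seen. Of all genes tested, set over the same denominators (*Cd3g*, *Cd3e*, *Lck*, *Cd4* and *Trac*), 16.7% to 37.5% did not overlap in B6 cells and 9.57% to 14.1% in NZB cells, or 26.1% to 36.6% over the 21 libraries, so such gaps were common. The ratio of *Cd4* to *Cd3e* was among those that overlapped in both haplotypes, at 1.77 to 2.46 in resting and 1.65 to 2.43 in activated B6 cells. The ratio of *Cd3d* to *Cd3g* counts was 1.09 to 1.25 (median 1.16) in resting and 1.80 to 2.17 (median 1.87) in activated B6 cells, with a gap between the states. The 2 genes with neighbouring starts thus did not change in the same proportion. In NZB cells the ratio was 1.16 to 1.89 (median 1.56) at rest and 1.75 to 2.06 (median 1.86) after activation, with an overlap that came from the resting libraries 2 and 6, since over the 21 libraries the resting range was 1.16 to 1.67 (median 1.31) and the activated range 1.75 to 2.06. The sets of libraries were looked at apart. In the second set the ratio was 1.09 to 1.16 in 4 resting B6 libraries against 1.92 in the activated one, and 1.16 in the resting NZB library against 1.76 and 1.80. In the first set it was 1.45 in the resting NZB library against 1.93 and 2.02, and in the third the NZB states overlapped, at 1.18 to 1.89 and 1.75 to 2.06. As a share of the counts of *Cd3d*, *Cd3e* and *Cd3g* together, without *Cd247*, *Cd3d* made up 37.9% to 40.2% in resting and 47.9% to 54.8% in activated B6 cells. In NZB cells it made up 36.4% to 45.2% and 41.6% to 56.8%.

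*Cd247* relative to *Trac*, the constant region of the receptor's α chain, was 0.253 to 0.310 (median 0.265) in resting and 0.450 to 0.472 (median 0.468) in activated B6 cells. The NZB ratio was 0.255 to 0.376 (median 0.290) at rest and 0.385 to 0.615 (median 0.472) after activation. The states were separated in both haplotypes, by a narrow margin in NZB cells. *Cd3d* relative to *Trac* overlapped in NZB cells, at 0.200 to 0.314 at rest and 0.223 to 0.702 after activation. *Trac* relative to *Cd3e* overlapped in both haplotypes, and over the 21 libraries it was 5.52 to 6.73 at rest and 3.58 to 5.42 after activation in NZB cells. *Zap70* relative to *Lck* was 0.259 to 0.289 (median 0.273) at rest and 0.341 to 0.373 (median 0.351) after activation in B6 cells, while in NZB cells it was 0.270 to 0.313 (median 0.278) and 0.312 to 0.400 (median 0.367). The highest resting NZB library, number 6, reached the lowest activated one, and over the 21 libraries the ranges were 0.270 to 0.288 and 0.312 to 0.389.

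**Figure D3:**
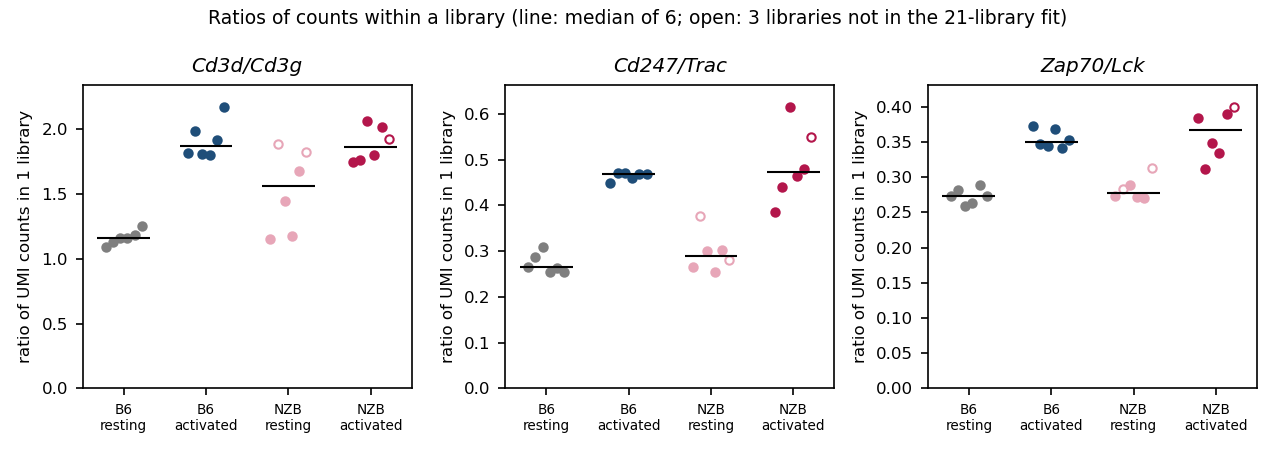
Ratios of UMI counts of 2 genes within a library (vertical axes, from 0) by haplotype and state, for *Cd3d* to *Cd3g*, *Cd247* to *Trac* and *Zap70* to *Lck*. Points are libraries, lines are medians of 6 and open points are the 3 libraries set aside in the 21-library fit. In B6 cells the medians move from 1.16 to 1.87, from 0.265 to 0.468 and from 0.273 to 0.351 with activation.

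The haplotypes were then compared with each other at the same state, which is the comparison that conplastic mice allow. At rest 0 of the 9 genes passed the test, where 2.76% of all genes did (292 genes). That number rested on single libraries, being 0 without B6 resting 4 or NZB resting 5, 2 without B6 resting 1, 8 without B6 resting 3, 27 without B6 resting 5, 175 without B6 resting 6, 180 to 194 without B6 activated 2, 3, 4 or 5, and 572, 587, 478 and 527 without NZB resting 1, 3, 4 and 6, so the members' count of 0 has no firm background to be read against. The median log2 difference of NZB minus B6 cells was 0.0049 over the members and -0.011 over all genes tested. The difference of greatest size was that of *Cd3g*, -0.35 (SE 0.17, 95% interval -0.70 to 0.0029, adjusted p = 0.243), and it was -0.15 over the 21 libraries. The libraries behind it were NZB resting 2 and 6, with 152 and 193 CPM of *Cd3g*, against 306 to 372 CPM in the other 4. The other 8 differences lay between -0.088 for *Cd4* and 0.13 for *Zap70*, with *Cd3d* at -0.058 and *Cd3e* at 0.0049.

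Over the 21 libraries, where 6.11% of all genes differed at rest, 0 of the 9 members passed. *Lat* had the smallest p-value there, with 725 to 874 CPM in the 4 NZB libraries and 543 to 708 CPM in the 6 B6 libraries, a log2 difference of 0.28 (SE 0.11, adjusted p = 0.118). The share of all genes whose libraries separated in this way is not given here, and groups this small overlap less readily. NZB resting 2 and 6, left out of that set, held 474 and 467 CPM of *Lat* and fell below all 6 B6 libraries. NZB resting 6 also had the highest share of other-cell markers, 3.71%, with 12050 CPM of the granulocyte list, more than any other resting library, and the part of that RNA in the level of *Lat* was not tested.

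After activation 0 of the 9 genes differed between the haplotypes, and 0% of all genes did, in the fit over 24 libraries and in that over 21. At an unadjusted p under 0.05 there were 327 of 10566 genes and 0 members over the 24 libraries, and 1068 of 10826 genes (9.87%) and 1 member over the 21, *Lat* (0.33, unadjusted p = 0.0044, adjusted p = 0.364 by edgeR). DESeq2 called 0 genes. Over the 24 libraries *Lat* had the highest difference, 0.23 (SE 0.15, 95% interval -0.074 to 0.54, adjusted p = 1), and *Lcp2* the lowest, -0.16 (SE 0.15, 95% interval -0.46 to 0.15, adjusted p = 1). The order of the group medians differed from gene to gene. *Cd247* ran from resting B6 (509.6 CPM) through resting NZB (551 CPM) and activated B6 (611 CPM) to activated NZB cells (690.6 CPM), and *Zap70* had the same order, but the 2 haplotypes of a state were within their spread in both genes.

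**Figure D4:**
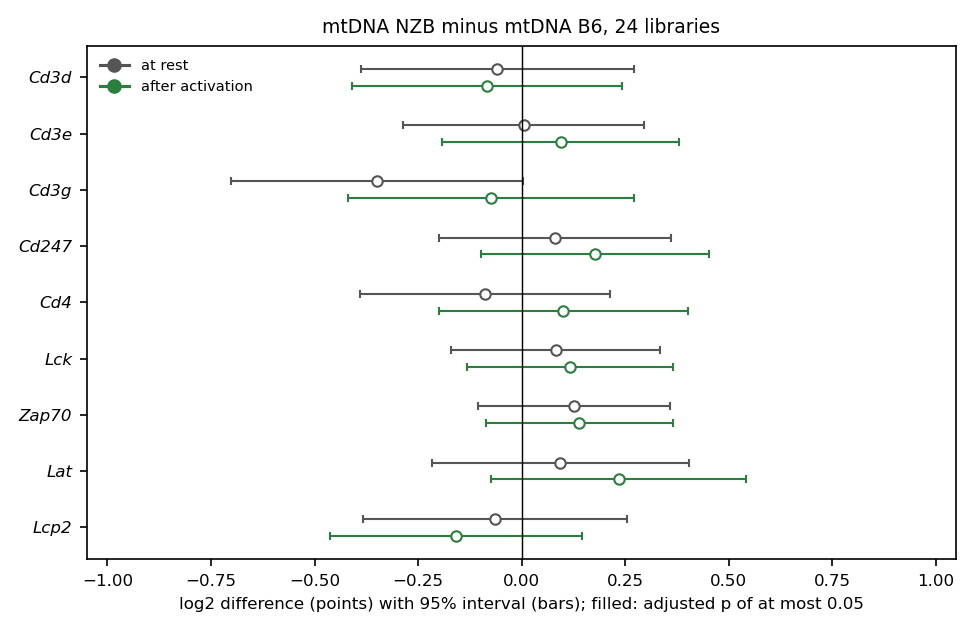
Log2 difference of NZB minus B6 cells for the 9 genes (horizontal axis), at rest (grey) and after activation (green), from edgeR's quasi-likelihood test over 24 libraries. Bars are 95% intervals, and open points did not pass at an adjusted p of at most 0.05. All 18 points are open and all 18 intervals hold 0, the upper end for *Cd3g* at rest by 0.0029.

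Whether the response to activation itself differed between the haplotypes was tested as the difference of the 2 responses. It passed for 0 of the 9 members and for 0% of all genes. At an unadjusted p under 0.05 there were 1512 genes and 0 members, and DESeq2 called 1 gene. The interaction was 0.28 for *Cd3g* (SE 0.24, 95% interval -0.22 to 0.77, adjusted p = 0.63), the largest of the 9, 0.097 for *Cd247* (95% interval -0.30 to 0.49) and -0.025 for *Cd3d* (95% interval -0.49 to 0.44). The call of *Cd247* in 1 haplotype and not the other was thus not shown to be a difference between them. Over the 21 libraries 1.04% of all genes passed, and 0 of the 9 members.

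The other genes of the pathway were taken as a list of 53 by role, of which 51 were tested (*Lime1* and *Sos1* had too few counts). Activation raised 16 and lowered 11 of the 51 in B6 cells, and raised 3 and lowered 20 in NZB cells, beside the backgrounds of 22.4%, 24.5%, 25.2% and 28.4% above. The genes that passed in both numbered 13, which is 48.1% of the B6 and 56.5% of the NZB calls, and all 13 moved the same way, 3 up and 10 down. Over all genes tested 3966 passed in both, which is 80% of the B6 and 70.1% of the NZB calls, and 99.9% of them moved the same way. The response differed between haplotypes for 0 of the 51 over the 24 libraries, so the unlike counts of risers were not shown to be a difference between haplotypes. Over the 21 libraries the counts were 16 up and 13 down, and 2 up and 22 down, and 2 genes differed in response, *Ptprc*, the gene of the phosphatase CD45 (-0.54, adjusted p = 0.0463), and *Nck1*, an adaptor of SLP-76 (-1.03, adjusted p = 0.0483). With the library set as a term the B6 counts were 5 up and 9 down, and the shares of all genes were lower as well, 16.3% up and 17.1% down.

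Of the receptor's own chains, *Trac* fell in both haplotypes, by 0.48 (SE 0.14, adjusted p = 0.00584) and by 0.34 (SE 0.14, adjusted p = 0.0412) on the log2 scale, from medians of 1900.0 and 2005 CPM to 1302 and 1461 CPM. The B6 call held in all 24 fits that left out 1 library, and the NZB call in 15, with adjusted p up to 0.111, being lost without B6 resting 3 or 6, NZB resting 1, 3, 4 or 5, or NZB activated 3, 4 or 6. The β chain constant regions *Trbc1* and *Trbc2* did not pass, at -0.026 and -0.19 in B6 and 0.19 and 0.13 in NZB cells. Of these 3 chains, 1 fell and 0 rose in each haplotype, beside 24.5% and 28.4% of all genes that fell. *Trat1*, listed with them, encodes an adaptor bound to the receptor and fell by 2.31 and by 2.40 (adjusted p = 4.85e-06 and 8.16e-06).

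The genes that set the activity of Src-family kinases gave 2 rises and 2 falls of 7 in B6 cells, and 0 rises and 2 falls in NZB cells. With 22.4% of all genes higher and 24.5% lower in B6 cells, and 25.2% and 28.4% in NZB cells, 2 of 7 was near the background. *Pag1*, the membrane anchor of the inhibitory kinase CSK, fell by 1.23 (SE 0.14, adjusted p = 1.88e-07) and by 1.69 (SE 0.15, adjusted p = 2.35e-09), from medians of 32.8 and 43.3 CPM to 13.5 and 13.9 CPM. *Csk* rose by 0.30 (adjusted p = 0.0411) and *Ptpn22*, a phosphatase that works with CSK, by 0.64 (adjusted p = 0.0236) in B6 cells. The call of *Ptpn22* was lost without B6 activated 1 (adjusted p = 0.0707), and that of *Csk* without B6 resting 1, 4 or 5 or B6 activated 2, 3, 4, 5 or 6 (adjusted p up to 0.087). Neither passed in NZB cells, where *Csk* was at 0.23 (adjusted p = 0.108) and *Ptpn22* at -0.40 (adjusted p = 0.156). *Unc119*, which activates LCK and FYN, fell in B6 cells by 0.51 (adjusted p = 0.00833), and *Fyn*, the other Src-family kinase of T cells, fell in NZB cells by 0.35 (adjusted p = 0.0263), a call lost without NZB resting 3 or 5 or NZB activated 3 or 4 (adjusted p up to 0.105).

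Among the partners of LAT and SLP-76, 4 of 14 rose and 1 fell in B6 cells, and 1 rose and 6 fell in NZB cells, against the same 22.4% up and 24.5% down, and 25.2% up and 28.4% down, of all genes. The share that rose in B6 cells was near that background. *Tespa1*, a positive regulator of receptor signalling in thymocytes, fell in both, by 1.23 and by 1.20 (adjusted p = 8.69e-05 and 0.000196). *Vav1*, a guanine nucleotide exchange factor bound by SLP-76, rose in both, by 0.39 and 0.38 (adjusted p = 0.00613 and 0.00836). *Sh2d2a* (0.53, adjusted p = 0.00195), which encodes an LCK-binding adaptor, and *Nck1* (0.52, adjusted p = 0.0186) rose in B6 cells.

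Of 14 genes that restrain the receptor, 7 rose and 4 fell in B6 cells, and 1 rose and 5 fell in NZB cells, where of all genes 22.4% rose and 24.5% fell in B6 cells and 25.2% and 28.4% did in NZB cells. *Dok2*, an adaptor that recruits inhibitors of Ras, rose in both, by 0.84 and 0.69 (adjusted p = 1.1e-05 and 0.000135), from medians of 114 and 125 CPM to 228 and 194 CPM. *Dgka*, the diacylglycerol kinase that ends the Ras signal, fell in both, by 0.83 and by 0.77 (adjusted p = 4.4e-05 and 9.48e-05), from 973 and 998 CPM to 505 and 521 CPM. *Sit1*, an inhibitory transmembrane adaptor, fell in both, by 0.79 and by 0.59 (adjusted p = 0.000407 and 0.0067). *Cblb*, a ubiquitin ligase that raises the threshold of activation, rose in B6 cells by 0.76 (SE 0.20, adjusted p = 0.00243) and was at 0.099 (adjusted p = 0.71) in NZB cells.

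Downstream of the scaffolds, 3 of 12 genes rose and 2 fell in B6 cells, and 1 rose and 5 fell in NZB cells. Both B6 counts were near what 22.4% and 24.5% of all genes would give, and the NZB backgrounds were 25.2% and 28.4%. *Nfatc2*, a calcium-regulated transcription factor, rose in both, by 0.52 and 0.44 (adjusted p = 0.012 and 0.0357), and *Nfatc1* in B6 cells, by 0.40 (adjusted p = 0.029). The NZB call of *Nfatc2* was lost without NZB resting 1, 3 or 6 or NZB activated 1, 2 or 5 (adjusted p up to 0.105), and the call of *Nfatc1* without B6 resting 1, 4 or 5 or B6 activated 1, 5 or 6 (adjusted p up to 0.0822). *Bcl10*, which links the receptor to NF-κB, fell in both, by 0.66 and by 1.26 (adjusted p = 0.00263 and 1.69e-06). *Rhoh*, a GTPase needed to bring ZAP-70 to the receptor, fell in both, by 0.81 and by 0.78 (adjusted p = 0.000219 and 0.000315). *Orai1*, the pore of the calcium release-activated channel, fell in NZB cells by 0.99 (SE 0.26, adjusted p = 0.00266). Its NZB levels were 90.3 to 334.5 CPM (median 119.8) at rest and 52.8 to 119.3 CPM (median 90.4) after activation, so the states overlapped. The difference was -0.69 over the 21 libraries (adjusted p = 0.038) and -1.145 to -0.66 with 1 library left out.

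*Bcl10* and *Orai1* were also the 2 list genes, of 51, that passed between haplotypes at rest, beside 2.76% of all genes. *Orai1* had a median of 76.6 CPM in B6 and 119.8 CPM in NZB resting cells, a log2 difference of 1.16 (adjusted p = 0.0298), and *Bcl10* had medians of 135.0 and 162 CPM, a difference of 0.72 (adjusted p = 0.0328). Each passed in 19 of the 24 fits that left out 1 library, and neither passed without B6 resting 1, 3, 4 or 5 or NZB resting 5, where the adjusted p reached 0.163. Both also passed over the 21 libraries, at 0.98 and 0.71 (adjusted p = 0.0286 for each), where *Pag1* (0.56, adjusted p = 0.025) and *Sh2d2a* (0.47, adjusted p = 0.043) were higher in NZB cells as well. With the library set as a term 1 gene of all those tested differed at rest, and in a fit of the resting libraries alone 0 did.

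**Figure D5:**
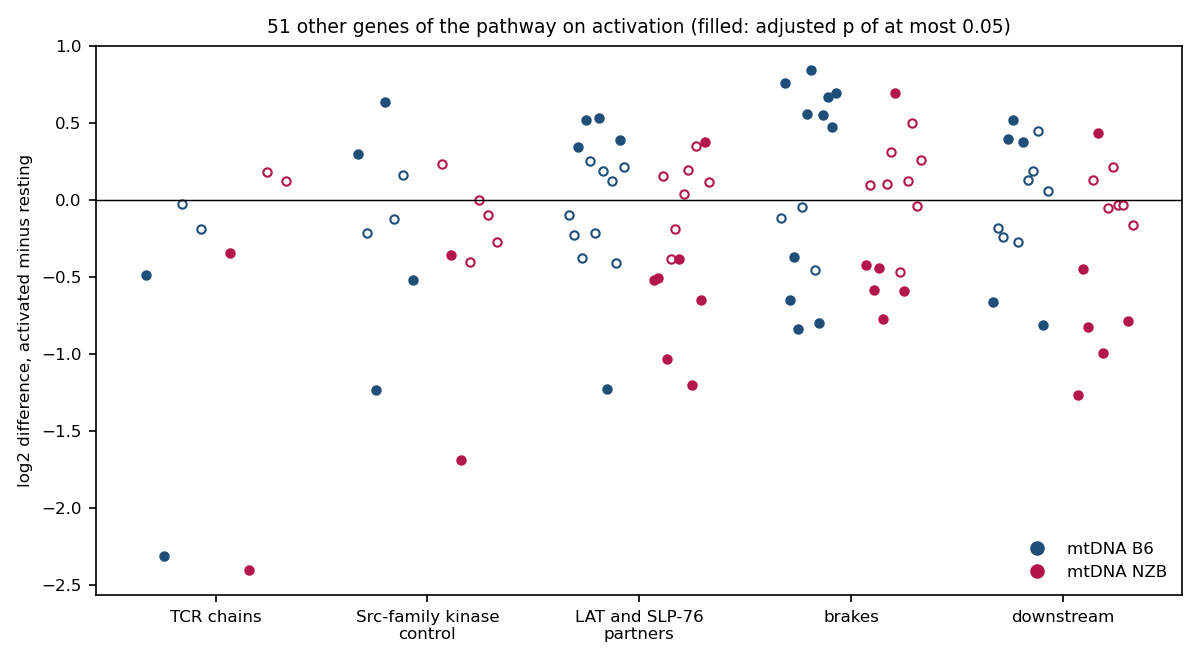
Log2 difference of activated minus resting cells (vertical axis) for the 51 other genes of the pathway that were tested, in 5 lists by role (horizontal axis), in B6 (blue) and NZB (red) cells. Each point is a gene and filled points passed at an adjusted p of at most 0.05. In B6 cells 16 filled points lie above 0 and 11 below, and in NZB cells 3 above and 20 below, with *Trat1* lowest in both.

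The genes whose levels ran most like the 4 receptor chains were found by the Pearson correlation of log2 CPM with the mean standardized log2 CPM of *Cd3d*, *Cd3e*, *Cd3g* and *Cd247* over the 24 libraries, among genes with a mean of at least 10 CPM. They were *Pik3cd* (r = 0.84), *Trbc1* (r = 0.82), *Traf3ip3* (r = 0.82), *Ablim1* (r = 0.82) and *Il2rg* (r = 0.80). Over the 21 libraries the values were 0.71, 0.68, 0.70, 0.74 and 0.65. The libraries share group, depth and content of other-cell RNA, so these values describe the set and carry no p-value.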

How the data were processed

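RNA of splenic Tconv CD4+ cells was measured in 24 libraries, grouped by haplotype and state from the labels. The authors trimmed reads with cutadapt, dropped those under 30 bases, mapped the rest with STAR to the last 1000 bases of genes (GRCm39, Ensembl 106), counted them with HTSeq, collapsed UMIs and corrected them for saturation. The counts as deposited are these UMI counts, whole numbers not scaled to library size. A second deposited table of larger counts, which the methods do not describe, served as an alternative and for the ratio of reads to UMIs. 1 column matched no sample and was not used. Labels and methods differ on RNA input (30 and 60 ng).

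The tools were edgeR 4.0.16, DESeq2 1.42.0 and limma 3.58.1 under R 4.3.3. Counts were scaled by TMM, genes with low counts removed by filterByExpr, and the 4 groups entered 1 model. Each contrast was tested by the quasi-likelihood F test of edgeR, p-values were adjusted over the 10566 genes tested by Benjamini-Hochberg, and a gene was called at 0.05 or less. The SE is the size of the log2 difference divided by the square root of F, and intervals are 95%. The fit was tested on simulated data. Pairs of libraries of 1 group were compared by chi-square, which was 2.97 or more per degree of freedom in every pair, above counting noise, so none was taken for a repeat deposit of another. Repeat libraries of 1 mouse could also differ this much and cannot be told apart from separate mice. Symbols and coordinates are from GENCODE on GRCm39.

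The members and lists were chosen with earlier results of these data known. Named list genes are, in each list and haplotype, the 2 largest rises and falls among called genes, every called gene of the haplotype comparisons, and genes named beside them with their values. *Trbc1*, *Trbc2*, *Ptprc* and those of the 21-library fit were named after their values were seen. 1 gene that the rule selects is counted but not reported here. Replicate numbers were checked for pairing. The alternatives were DESeq2 with the settings of the study, no filter or a stricter one (10 counts in 6 libraries), median-of-ratios size factors, the second table, 21 libraries, replicate blocks, library set as a term, only the groups compared, a log2 fold change of at least 1, and each library left out.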

Additional observations from a re-analysis of the deposited data

Results flagged for a closer look

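In 6 of the 36 groups of 6 values (9 genes in 4 groups), 1 library lay far from the other 5 by Dixon's criterion, which chance alone flags in about 1 in 20 groups. B6 resting 5 was the low library for 3 genes, with 343.01 CPM of *Cd3d* (447 to 497 in the others), 533.93 CPM of *Lck* (720.4 to 801) and 543.14 CPM of *Lat* (654 to 708). It was also the lowest of the 6 resting B6 libraries for all 9 members, and NZB resting 6 the lowest of its group for 6 of 9. NZB resting 6 was low for *Cd247*, at 315.58 CPM against 536 to 661 CPM. B6 activated 3 was high for *Cd3e*, at 355.24 CPM against 236 to 278 CPM. NZB resting 2 was high for *Lcp2*, at 33.876 CPM against 13.7 to 19.1 CPM, a value that rests on 2 UMIs.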

How the results depend on the processing

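The call of *Cd3d* held in all 24 fits that left out 1 library, with adjusted p from 0.00108 to 0.0122 in B6 and from 0.000685 to 0.0233 in NZB cells, and in 9 of 10 other settings in each haplotype, with adjusted p from 0.000211 to 0.15 and from 0.00282 to 0.054. *Cd247* passed in 3 of 10 other settings in B6 cells (adjusted p 0.0192 to 0.383) and in 7 of 10 in NZB cells (0.0139 to 0.077). Leaving out 1 library, it passed in B6 cells without B6 resting 3 (adjusted p = 0.0185), NZB resting 2 (0.0327) or NZB resting 6 (0.0267). Members called in B6 cells, 1 in the fit reported, were 2 over the 21 libraries (50.3% of all genes called), 2 with a replicate block by description number (40.6%), 0 with the library set as a term (33.4%), 3 in a fit of the groups compared (56.9%), 0 at a log2 difference of at least 1 (17.7%), and 1 to 2 with a library left out (42.4% to 49.3%), against 46.9% in the fit reported, so that each of these counts of 9 lay below the share of all genes. In NZB cells, 2 in the fit reported, they were 1 in the second count table (44.3%), 0 over the 21 libraries (53.2%), 1 in a fit of the groups compared (43.7%), 0 at a log2 difference of at least 1 (23.4%), and 1 to 2 with a library left out (49.9% to 54.8%), against 53.5%. List genes called, 27 in B6 cells, were 14 of 51 with the library set as a term and 3 at a log2 difference of at least 1, and 23 in NZB cells became 14 with the block by description number (39.1% of all genes called) and 5 at a log2 difference of at least 1. Members that differed between haplotypes, or in their response, were 0 in every setting that could be fitted. The causes were not tested.

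Same-numbered libraries did not deviate together in every pair (correlations of -0.158 to 0.253 in 9 pairs by description number, 3 of them over 0.1, and -0.185 to 0.253 in 12 pairs by title number, 4 over 0.1). The numbers were not taken as pairing in the fit reported, but pairing in B6 cells is not excluded. The methods have isolated cells divided into resting and activated ones, and whether a description number marks 1 such preparation is not given in the sources used here. By that number 3 of 5 pairs of B6 cells were over 0.1 and 0 of 4 of NZB cells, and by title number 4 of 6 and 0 of 6. In 2 of 9 pairs by description number and 3 of 12 by title number the resting library correlated best with its own number, all of them in B6 cells. The description number is nested in haplotype, so its block could not be fitted between haplotypes, and the interaction needs all groups, so it has no fit of the groups compared alone.

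Differences near 0 changed sign, none of them called. In NZB cells on activation, *Cd3g* was -0.088 over 21 libraries. At rest, over 21 libraries *Cd3d* was 0.072 and *Cd4* 0.11; *Cd3e* was -0.0068 by DESeq2, -0.011 with median-of-ratios size factors, -0.024 with no filter, -0.0074 with the block by title number and -1.045e-05 in a fit of the groups compared; *Lcp2* was 0.014 in the second table and 0.0038 with the set term. After activation the set term gave 0.041 for *Cd3d* and 0.050 for *Cd3g*. For the difference of responses, the set term gave 0.13 for *Cd3d* and -0.0037 for *Lck*, the second table -0.025 for *Lck* and -0.084 for *Zap70*, and 21 libraries -0.0084 for *Cd247*, -0.028 for *Lck* and -0.051 for *Zap70*. With 1 library left out, the ranges that crossed 0 were, on activation of NZB cells, -0.13 to 0.059 (*Cd4*) and -0.20 to 0.0035 (*Lat*). At rest they were -0.13 to 0.0038 (*Cd3d*), -0.083 to 0.094 (*Cd3e*), -0.18 to 0.012 (*Cd4*) and -0.14 to 0.034 (*Lcp2*). After activation they were -0.24 to 0.020 (*Cd3d*) and -0.19 to 0.012 (*Cd3g*). For the responses they were -0.18 to 0.078 (*Cd3d*), -0.00088 to 0.18 (*Cd3e*), -0.025 to 0.18 (*Cd247*), -0.060 to 0.11 (*Lck*) and -0.064 to 0.082 (*Zap70*). Depth limits *Lcp2* most, with 2 to 110 UMIs a library.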
